A study of Mus musculus with 24 samples.

Results

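The data here are the transcript levels of 34 genes of glycolysis and of the response to low oxygen in cultured mouse limb buds. The members were a fixed list of gene symbols matched to the deposited tables, and 34 of 34 were found among 25844 genes. Forelimb buds of CD1 mouse embryos at gestation day 13 were grown ex vivo for 24 h or for 3 h. Each time had libraries with the solvent DMSO, with 1 µM and with 10 µM tert-butylphenyl diphenyl phosphate (BPDP), an organophosphate ester flame retardant and plasticizer. There were 4 poly-A RNA-seq libraries in each of the 6 groups, 24 in all, and the DMSO groups carried no BPDP. The labels do not say whether replicates were separate litters or cultures, so p-values measure the spread between these libraries.

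Glycolysis splits glucose into pyruvate in a chain of enzyme steps, and lactate dehydrogenase turns the pyruvate into lactate that leaves the cell. When oxygen is low, the prolyl hydroxylases that mark HIF-1α for destruction slow down, the protein accumulates, and HIF-1 dimers bind hypoxia response elements near genes for glucose uptake, glycolysis, blood vessel growth and mitophagy. HIF-1α is controlled mostly at the level of the protein, and in the embryonic limb it is known for its part in the poorly supplied growing cartilage.

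The promoter windows of the widest-ranging and narrowest-ranging members among the DMSO 24 h libraries are shown because the results turn on that range. The windows come from RefSeq on GRCm38.p6 and hold the 250 bases before a transcription start, written along the gene's strand. Capitals mark the core of the hypoxia response element, searched as ACGTG or GCGTG on both strands. The 4 widest came from Ankrd37 (chr8:45999851-46000100, minus strand), Adm (chr7:110627407-110627656, plus strand), Slc16a3 (chr11:120948817-120949066, plus strand) and Bnip3 (chr7:138909507-138909756, minus strand). The 2 narrowest came from Hif1a (chr12:73907617-73907866, plus strand) and Pfkfb4 (chr9:108991652-108991901, plus strand).
Ankrd37: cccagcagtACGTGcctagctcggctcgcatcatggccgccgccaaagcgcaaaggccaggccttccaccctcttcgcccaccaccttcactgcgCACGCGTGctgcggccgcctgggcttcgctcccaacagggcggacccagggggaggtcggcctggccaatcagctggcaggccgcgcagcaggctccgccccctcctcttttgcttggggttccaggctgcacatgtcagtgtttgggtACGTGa
Adm: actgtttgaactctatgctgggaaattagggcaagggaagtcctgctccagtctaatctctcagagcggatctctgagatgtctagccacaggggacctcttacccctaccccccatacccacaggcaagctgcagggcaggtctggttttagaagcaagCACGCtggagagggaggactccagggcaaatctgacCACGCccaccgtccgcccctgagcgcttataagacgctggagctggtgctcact
Slc16a3: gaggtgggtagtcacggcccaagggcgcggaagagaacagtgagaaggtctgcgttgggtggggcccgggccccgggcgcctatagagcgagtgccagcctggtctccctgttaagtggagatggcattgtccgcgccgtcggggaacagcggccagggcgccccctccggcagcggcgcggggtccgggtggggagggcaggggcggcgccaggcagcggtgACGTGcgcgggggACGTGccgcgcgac
Bnip3: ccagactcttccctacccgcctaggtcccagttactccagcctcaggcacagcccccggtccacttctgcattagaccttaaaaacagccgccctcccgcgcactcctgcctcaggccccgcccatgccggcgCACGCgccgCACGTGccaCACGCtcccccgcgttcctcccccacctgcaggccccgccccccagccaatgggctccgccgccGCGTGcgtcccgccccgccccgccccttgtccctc
Hif1a: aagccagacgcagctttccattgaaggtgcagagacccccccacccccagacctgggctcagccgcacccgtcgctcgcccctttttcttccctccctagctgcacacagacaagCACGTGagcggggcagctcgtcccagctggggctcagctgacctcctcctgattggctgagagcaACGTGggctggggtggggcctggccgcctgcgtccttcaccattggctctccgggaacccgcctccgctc
Pfkfb4: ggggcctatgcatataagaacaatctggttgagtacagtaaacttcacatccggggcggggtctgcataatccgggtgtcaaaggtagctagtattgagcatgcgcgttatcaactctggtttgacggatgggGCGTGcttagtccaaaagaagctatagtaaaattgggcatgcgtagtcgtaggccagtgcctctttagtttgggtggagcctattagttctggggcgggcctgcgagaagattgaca

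These stretches hold 4 cores in Ankrd37, 2 in Adm, 2 in Slc16a3, 5 in Bnip3 (on the 2 strands some share letters), 3 in Hif1a and 1 in Pfkfb4. Over windows of 300 bases, which add the 50 bases after the start, 31 of the 34 members had a RefSeq window and 29 of those 31 (93.5%) had a core in at least 1 window. Of all 27025 genes with a window, 46.7% had one. Tpi1 and Gpi1 had none in these windows, and Slc2a3, Epas1 and Ndrg1 were not matched. The members' windows were also richer in G and C, with a median of 62.3% against 52.7% over all windows, and how far that sets the count of cores was not tested. A match of letters is a description and not a site of binding.

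Total counts were 14165947 to 20823058 per library, and every member passed the filter on low counts in every comparison. Levels are given as CPM, read counts divided by library size, scaled once over the 24 libraries. Tbx5, the forelimb marker, lay at 189.5 to 304.9 CPM, and the hindlimb markers Tbx4 and Pitx1 at 14.9 to 23.4 and 1.93 to 12.4 CPM. In bulk libraries, fewer cells of a type and less RNA per cell cannot be told apart.

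Compared per length in the DMSO 3 h libraries (mean ± SD, n = 4), the 7 highest members were enzymes of glycolysis and lactate formation. Gapdh, glyceraldehyde-3-phosphate dehydrogenase, had 960 ± 94.9 RPKM (CPM per kilobase of transcript), and Pkm, pyruvate kinase, had 500 ± 69.5 RPKM. Tpi1 (313 ± 28.9), Aldoa (299 ± 36.5), Ldha (270.0 ± 23.6), Eno1 (243 ± 25.5) and Pgk1 (189 ± 23.4 RPKM) followed, and neighbours in that run overlapped within their SD except Eno1 and Pgk1. The lowest members were Adm at 0.907 ± 0.417, Car9 at 1.12 ± 0.148 and Aldoc at 1.57 ± 0.232 RPKM. Reads of Eno1 may be shared with its near-identical copy Eno1b, which had 54.4 to 192 CPM, so the level of Eno1 is uncertain.

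In the DMSO 24 h group the members split the 4 replicates into 2 high libraries (replicates 1 and 4, the high pair) and 2 low ones (replicates 2 and 3, the low pair). Their summed level was 12781, 4238, 5324 and 8419 CPM in replicates 1, 2, 3 and 4. The members' median deviation from the group mean of log2(CPM + 1) was 0.99, -0.78, -0.53 and 0.32 in that order. Replicate 4 thus lay between replicate 1 and the low pair. Replicates 1 and 4 both lay above replicates 2 and 3 in 30 of 34 members, and the highest library exceeded the lowest by a median of 3.77-fold over the members. Replicate 1 was the highest of all 24 libraries in 31 members (91.2%), against 9.56% of the 16691 genes tested. In 22 members (64.7%, against 0.791% of all genes) replicate 1 ranked first and replicate 4 second of the 24.

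The split ran through every role. Slc2a1, the main glucose transporter of embryonic tissues, had 450.1, 68.6, 81.7 and 219 CPM in DMSO 24 h replicates 1 to 4. Slc16a3, which exports lactate, had 174, 19.7, 23.2 and 91.3 CPM, and Bnip3, a mitophagy receptor, had 189.7, 26.3, 25.5 and 109 CPM. In all of these replicate 1 was the highest and replicate 4 was well above replicates 2 and 3.

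Ndrg1, a hypoxia-induced gene of the cytoplasm, had 122, 20.1, 18.9 and 60.9 CPM in those libraries. Pgk1, phosphoglycerate kinase, had 654, 158, 203 and 436 CPM, and Vegfa, the blood vessel growth factor, had 316, 93.6, 55.5 and 116 CPM. Gapdh showed the same order on a smaller scale, with 1724, 801, 917 and 1161 CPM.

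The ratio of the highest to the lowest DMSO 24 h library was 8.86 for Slc16a3, 7.44 for Bnip3, 6.57 for Slc2a1, 6.42 for Ndrg1 and 6.15 for Pfkfb3, which makes the allosteric activator of phosphofructokinase. It was 46.6 for Ankrd37 and 16.4 for Adm, a secreted vasodilator, both at low levels (0.215 to 10.0 and 0.700 to 11.5 CPM). Reads of Ankrd37 may also mix with those of the overlapping gene Ufsp2 on the other strand, which averaged 31.2 CPM. Toward the other end it was 2.22 for Pkm, 2.15 for Gapdh and 1.78 for Hk1, the constitutive hexokinase. The remaining members with the high pair lay between 2.33 and 5.69.

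The other 4 members did not follow the split. Hif1a, which encodes the oxygen-labile subunit of HIF-1, had 121, 136, 138 and 135 CPM in DMSO 24 h replicates 1 to 4. Epas1, which encodes HIF-2α, had 31.3, 33.8, 47.6 and 32.5 CPM, and its highest library was replicate 3. Pfkfb4 had 12.2, 13.5, 10.0 and 10.8 CPM, and Pfkm, the muscle-type phosphofructokinase, had 127, 92.7, 110 and 107 CPM. The transcript of Hif1a was lowest in the library where its known targets were highest.

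**Figure D1:**
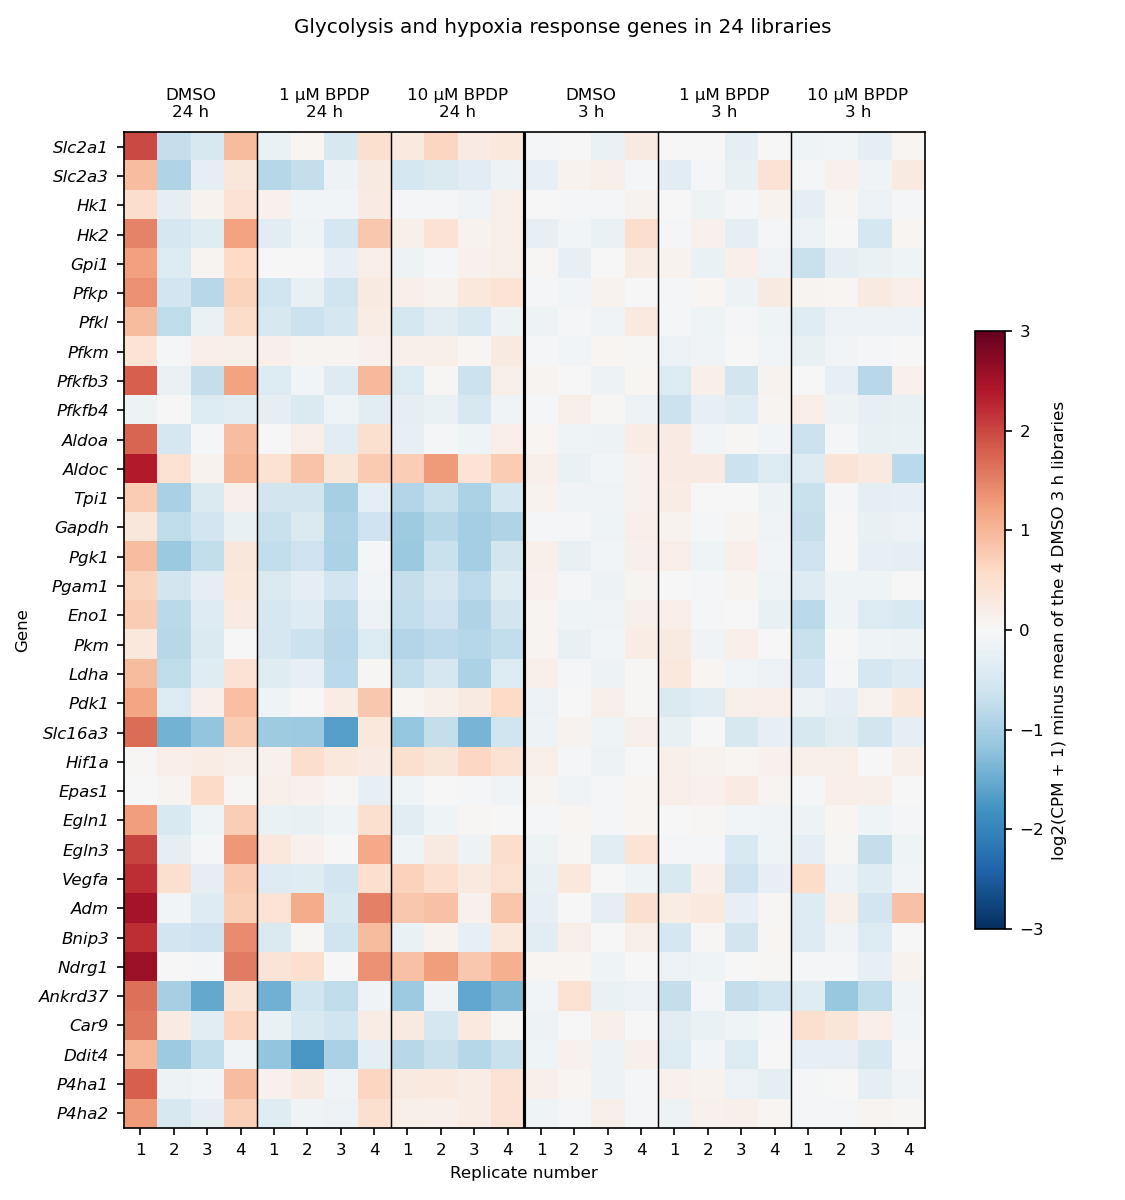
Log2(CPM + 1) of the 34 genes (down the page, in order of role) in the 24 libraries (across, by group and replicate), as a difference from the mean of the 4 DMSO 3 h libraries, red for higher and blue for lower. DMSO 24 h replicates 1 and 4 stand out in red, while replicates 2 and 3 of that group are mostly blue.

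The spread among replicates differed between groups. The median SD of log2(CPM + 1) among the 4 libraries was 0.81 over the members in the DMSO 24 h group, against 0.22 over all genes tested, and it exceeded 0.5 in 27 of 34 members against 6.94% of all genes. In the 1 µM 24 h group it was 0.36 over the members against 0.18 over all genes, with 10 members over 0.5 against 4.5% of all genes. There, replicate 4 was above the group mean in 31 members, by a median of 0.51 on the log2 scale. In the 10 µM 24 h group the median was 0.17 over the members and 0.16 over all genes, with 1 member over 0.5 against 4.28% of all genes. The 3 h groups had medians between 0.15 and 0.22 over the members.

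Other genes of the pathways, from a list of 74 of which 73 were found, moved with the split in part. Replicate 1 of DMSO 24 h was the highest of 24 libraries in 28 of 41 other hypoxia-related genes (68.3%), in 6 of 29 other genes of glucose metabolism (20.7%), in 2 of 25 genes of respiration and the citrate cycle, and in 0 of 16 cell cycle genes. Ero1l, an oxidase of the endoplasmic reticulum, had 129, 25.3, 23.2 and 59.1 CPM in DMSO 24 h replicates 1 to 4. Bhlhe40, a transcriptional repressor, had 115, 20.5, 17.1 and 24.3 CPM, so replicate 4 stayed near the low pair.

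Marker lists of other cell types in those 4 libraries gave the following summed levels. Endothelial genes summed to 449, 362, 367 and 382 CPM and limb mesenchyme genes to 877, 765, 835 and 885 CPM in replicates 1 to 4, and in both lists replicates 1 and 4 were above 2 and 3 but by less than for the members. Muscle genes summed to 2836, 3264, 4191 and 3910 CPM, and cartilage genes to 13997, 13319, 9139 and 10078 CPM. Those 2 lists, like the erythroid genes at 2974, 1903, 3661 and 3264 CPM, did not put replicates 1 and 4 on top. Macrophage genes (180.3 to 271 CPM), epidermal genes (1744 to 3015 CPM) and cell cycle genes (1140 to 1315 CPM) had another order too. Total counts were 17093724, 18315744, 19540189 and 19972395. The part of cell composition in the split was not tested.

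**Figure D2:**
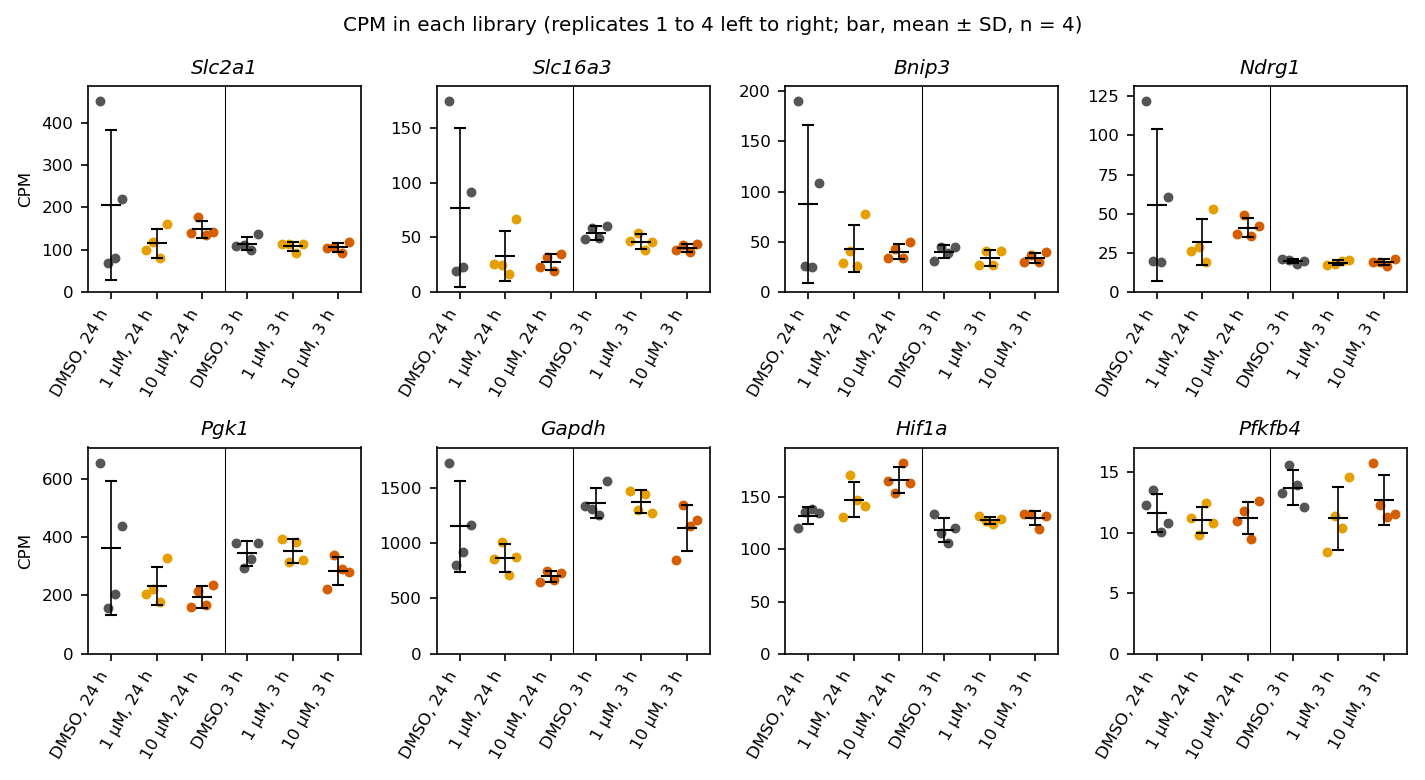
CPM of 8 members in each library, by group, with replicates 1 to 4 from left to right in a group and the mean ± SD (n = 4) as a bar. For 6 of the genes the DMSO 24 h points fall into a high and a low pair, while Hif1a and Pfkfb4 stay close together.

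After 24 h with 10 µM BPDP, 1 member differed from DMSO: Hif1a was higher. By edgeR's quasi-likelihood test with Benjamini-Hochberg adjustment over all genes, 1 of 34 members had an adjusted p under 0.05, where 6.21% of the 15508 genes tested did (2.77% higher, 3.44% lower). Hif1a (chromosome 12, 73901375 to 73947530, plus strand, mm10) had 166, 154, 183 and 163 CPM with 10 µM BPDP, against 121, 136, 138 and 135 CPM with DMSO. The groups did not overlap.

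Hif1a averaged 167 ± 12.2 CPM with 10 µM BPDP and 132 ± 7.86 CPM with DMSO (SD, n = 4 each), a log2 fold change of 0.34 (SE 0.082, edgeR adjusted p = 0.029). The call was lost without DMSO 24 h replicate 4 (adjusted p = 0.0715), without 10 µM replicate 1 (0.0834), replicate 3 (0.0988) or replicate 4 (0.0766), within replicates 1 and 2 (0.43), with scaling to total counts (0.0527), and without both DMSO replicates 1 and 4 (0.134). The log2 fold change was 0.29 in that last fit.

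The other 33 members had a negative log2 fold change, with a median of -0.61 over the 34 and -0.02 over all genes, and none passed. Without DMSO 24 h replicate 1 alone the median was -0.19, with 24 negative and 10 positive, and within replicates 3 and 4, where 33 were tested, it was -0.33. With replicate number as a block it was -0.42, with 31 negative and 3 positive. At an unadjusted p under 0.05 there were 5 members, Hif1a included, where 20.8% of all genes were. The 30 members that split the DMSO libraries enter this comparison with a wide error on the control side.

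Among transporters, Slc2a1 had 139, 178, 136 and 141 CPM with 10 µM BPDP at 24 h, all between the high pair and the low pair of DMSO libraries given above. Its log2 fold change was -0.46, with a 95% confidence interval of -1.99 to 1.07. Slc2a3, a high-affinity glucose transporter, had 58.0, 61.2, 67.3 and 74.7 CPM with 10 µM BPDP, against 160, 44.2, 67.9 and 107 CPM with DMSO (-0.53, interval -1.44 to 0.38). For both genes the DMSO range covered the whole BPDP range.

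From hexokinase to phosphofructokinase, the log2 fold changes lay between -0.63 (Pfkl, the liver-type phosphofructokinase) and -0.01 (Pfkm). Gpi1, glucose-6-phosphate isomerase, had 278, 303, 340 and 350 CPM with 10 µM BPDP, against 730, 233, 326 and 466 CPM with DMSO. Hk2, the inducible hexokinase, had 41.8, 51.6, 41.1 and 43.0 CPM with 10 µM BPDP, against 107, 26.5, 29.3 and 88.1 CPM with DMSO. In Hk2 all BPDP libraries again lay between the DMSO pairs.

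Pfkfb3 had a log2 fold change of -1.06 (interval -2.53 to 0.40) and Pfkfb4 of -0.05 (-0.39 to 0.29). Reads of Pfkm and Pfkp may mix with those of the overlapping genes Senp1 and Pitrm1, since the labels do not state whether the strand was kept.

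From aldolase to pyruvate kinase, Gapdh had 644, 747, 669 and 729 CPM with 10 µM BPDP, against 1724, 801, 917 and 1161 CPM with DMSO. The groups did not overlap, and the log2 fold change of -0.72 (SE 0.204) had an edgeR adjusted p = 0.0609. Pkm had 656, 696, 670 and 723 CPM with 10 µM BPDP, against 1496, 675, 890 and 1190 CPM with DMSO (-0.63, SE 0.201, edgeR adjusted p = 0.0958). Gapdh and Hif1a were the 2 members whose groups did not overlap, where 14.2% of all genes did not.

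These 2 enzymes sat just outside the threshold. Gapdh passed with scaling to total counts (adjusted p = 0.0445), and Gapdh and Pkm passed without DMSO replicate 2 and within replicates 3 and 4, all by edgeR. With DESeq2 Pkm passed beside Hif1a. In a fit of all 24 libraries, which shares 1 estimate of spread, 6 enzymes passed as lower beside Hif1a. They were Ldha (log2 fold change -0.85), Tpi1 (-0.78), Eno1 (-0.78), Gapdh (-0.72), Pgam1 (-0.70) and Pkm (-0.63). The share of all genes passing in that fit is not given here, so the count cannot be set against it. Without DMSO replicates 1 and 4 the log2 fold changes shrank to -0.29 for Gapdh and -0.18 for Pkm.

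Aldoa, aldolase A, had 388, 443, 419 and 526 CPM with 10 µM BPDP, against 1549, 323, 449 and 883 CPM with DMSO (-0.85, interval -2.01 to 0.31). The other enzymes of this stretch had log2 fold changes between -0.90 (Pgk1) and -0.46 (Aldoc). Of the 3 members around pyruvate, Ldha, lactate dehydrogenase A, had 283, 336, 247 and 357 CPM with 10 µM BPDP, against 915, 278, 368 and 637 CPM with DMSO (-0.84, interval -1.71 to 0.03). Slc16a3 had 23.4, 32.5, 19.8 and 35.2 CPM with 10 µM BPDP, so its BPDP libraries sat near the low DMSO pair (log2 fold change -1.47, interval -3.34 to 0.40). Pdk1, which inhibits pyruvate dehydrogenase, had a log2 fold change of -0.31.

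Among the oxygen sensors, Egln1, the main HIF prolyl hydroxylase, had 65.7, 74.5, 84.2 and 83.0 CPM with 10 µM BPDP, against 198, 59.8, 74.4 and 137 CPM with DMSO (-0.61, interval -1.53 to 0.31). Egln3, a hydroxylase that HIF itself induces, had a log2 fold change of -0.96, and Epas1 of -0.27. Vegfa had 108, 95.4, 81.9 and 92.9 CPM with 10 µM BPDP, inside the DMSO range (-0.61, interval -1.92 to 0.70). None of these passed.

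Of the targets inside the cell, P4ha1, a collagen prolyl hydroxylase subunit, had 149.97, 153, 145 and 169 CPM with 10 µM BPDP, against 435, 111, 118 and 236 CPM with DMSO. Its paralog P4ha2 had 70.8, 70.0, 73.8 and 84.6 CPM with 10 µM BPDP, against 152, 44.9, 51.8 and 104 CPM with DMSO. Ddit4, an inhibitor of mTORC1 that stress also induces, had 128, 145, 126 and 144 CPM with 10 µM BPDP, against 457, 107, 138 and 212 CPM with DMSO. P4ha1 and P4ha2 lay between the DMSO pairs in every BPDP library, and Ddit4 overlapped the low pair.

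Ndrg1 had 37.3, 48.9, 35.7 and 42.5 CPM and Bnip3 34.4, 43.2, 33.6 and 49.8 CPM with 10 µM BPDP, all between the DMSO pairs. Their log2 fold changes were -0.42 and -1.12, and that of Car9, a carbonic anhydrase, was -0.84.

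Set against the pairs, all 4 of the 10 µM libraries were below both high DMSO libraries in 28 of the 30 split members and above both low ones in 8. In 7 members all 4 were in between. Since the pairs were found from the members' own levels, these counts describe the libraries, and a shift of the fold changes upward against the low pair comes with the choice.

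With DMSO replicates 1 and 4 both left out, a fit chosen after the data were seen, 6 members passed in edgeR, where 3.53% of all genes did. The log2 fold changes, 10 µM BPDP over the remaining 2 DMSO libraries, were 1.00 for Slc2a1, 0.68 for Hk2, 1.02 for Pfkp, 1.09 for Ndrg1, 0.44 for P4ha1 and 0.64 for P4ha2. The median over the members was 0.22 in that fit, with 26 positive and 8 negative. Since the 2 libraries were picked by the members' own levels, a change of sign upward comes with the choice. The share of all genes, which were not chosen so, is no like measure for these 6 calls. Without replicate 1 alone 24 members were negative, and without replicate 4 alone 33 were.

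**Figure D3:**
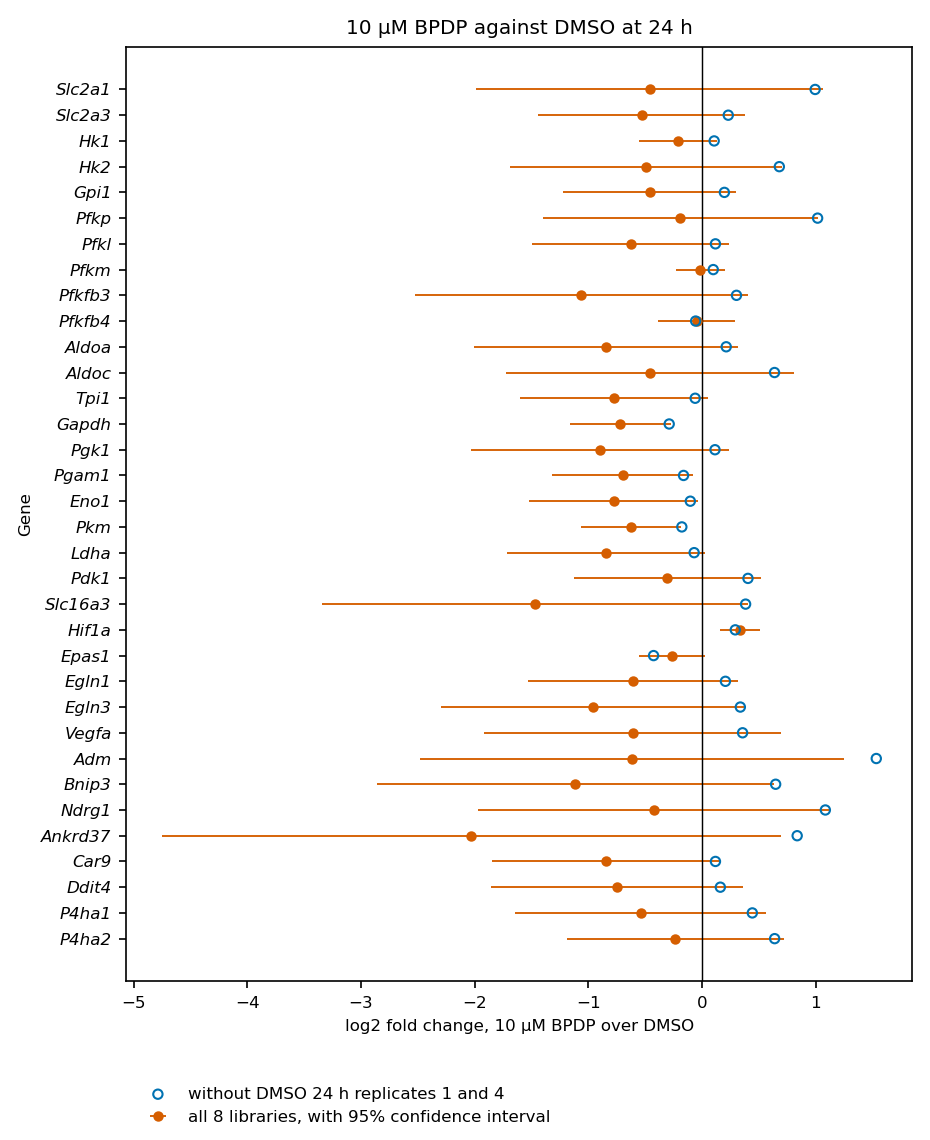
Log2 fold change of each member, 10 µM BPDP over DMSO at 24 h: filled points with 95% confidence intervals from all 8 libraries, open points with DMSO replicates 1 and 4 left out. Most filled points lie left of 0 (median -0.61) with intervals that cross it, most open points lie right of it (median 0.22), and Hif1a is right of 0 in both.

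After 24 h with 1 µM BPDP no member passed. By edgeR 0 of 34 members had an adjusted p under 0.05, where 0.077% of 15578 genes did, and with DESeq2 0 members passed as well. At an unadjusted p under 0.05 there was 1 member, where 5.89% of all genes were: Car9 (log2 fold change -1.26, SE 0.481, edgeR adjusted p = 0.709). The median log2 fold change over the members was -0.59 against -0.01 over all genes, with 33 negative. It was -0.15 without DMSO 24 h replicate 1, -0.40 with replicate number as a block, -0.25 within replicates 3 and 4 and -0.93 within replicates 1 and 2.

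Slc2a1 had 99.4, 119, 81.4 and 160 CPM with 1 µM BPDP at 24 h (log2 fold change against DMSO -0.83, interval -2.43 to 0.77). Hif1a had 131, 171, 147 and 142 CPM with 1 µM BPDP (0.16, interval -0.05 to 0.37). Vegfa had 50.5, 51.4, 44.3 and 95.6 CPM with 1 µM BPDP (-1.26, interval -2.72 to 0.19). Replicate 4 was the highest of the 1 µM group for Slc2a1 and Vegfa, and replicate 2 for Hif1a. All 4 of the 1 µM libraries were below both high DMSO libraries in 29 of the 30 split members. Without those DMSO libraries 0 members passed, where 0.0493% of all genes did, and the median was 0.30, with 29 positive and 5 negative. That choice of libraries brings a shift upward with it, so the share of all genes is no like measure there.

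After 3 h of culture the DMSO libraries were close together, and no member passed at either dose. With 10 µM BPDP, 0 of 34 members had an edgeR adjusted p under 0.05, where 0.00644% of 15520 genes did, and 10 members had an unadjusted p under 0.05, where 15.5% of all genes had. The median log2 fold change was -0.13 over the members against -0.0048 over all genes, with 25 negative. It was -0.07 with scaling to total counts, -0.08 without 10 µM replicate 3 and -0.22 without 10 µM replicate 4. The 10 were Gpi1, Pfkl, Aldoa, Tpi1, Pgk1, Eno1, Ldha, Slc16a3, Ankrd37 and Ddit4.

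Slc16a3 was nearest to the threshold. It had 38.4, 42.6, 36.7 and 43.9 CPM with 10 µM BPDP at 3 h, against 48.0, 58.3, 49.4 and 60.6 CPM with DMSO, and the groups did not overlap. The log2 fold change was -0.41 (SE 0.098, edgeR adjusted p = 0.0932). It passed with a term for replicates 3 and 4 (0.0331), with no filter on low counts (0.0389) and with DESeq2 (0.012).

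Eno1, enolase 1, had 279, 448, 367 and 358 CPM with 10 µM BPDP at 3 h, against 517, 445, 452 and 552 CPM with DMSO (-0.43, SE 0.127, edgeR adjusted p = 0.143). Ldha had 319, 462, 333 and 361 CPM with 10 µM BPDP, against 525, 468, 425 and 490.0 CPM with DMSO (-0.36, SE 0.115, edgeR adjusted p = 0.159). For both, replicate 1 with BPDP was the lowest, and both passed with DESeq2 alone. Besides Slc16a3, Pfkl was the only member whose groups did not overlap at 3 h, with 117 to 133 CPM with 10 µM BPDP and 137 to 186 CPM with DMSO (9.36% of all genes had no overlap).

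With 1 µM BPDP at 3 h, 0 of 34 members passed in edgeR or DESeq2, where 0% of 15446 genes passed in edgeR, and 2 members, Slc16a3 (-0.23) and Ankrd37 (-0.79), had an unadjusted p under 0.05, where 5.19% of all genes had. The median log2 fold change was -0.04 over the members. Hif1a had a log2 fold change of 0.10 (interval -0.05 to 0.26).

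Between 24 and 3 h of culture, members changed in both directions with BPDP, and none passed in DMSO. With 10 µM BPDP, 17 of 34 members had an edgeR adjusted p under 0.05, 9 higher and 8 lower at 24 h, where 31.7% of 15434 genes did (16.8% higher, 14.9% lower). With 1 µM BPDP, 8 members passed, 2 higher and 6 lower, where 22.1% of 15462 genes did (12.2% higher, 9.9% lower). Those 8 of 34 are near the share of all genes, so the count sets the members apart from other genes in no way. The 24 and 3 h libraries did not overlap in 13 members with 10 µM (31.8% of all genes) and in 6 with 1 µM (24.9%). The 6 of 34 with 1 µM are below the share of all genes. In DMSO 0 members passed, where 9.55% of 15640 genes did, and Aldoc and Car9 had an unadjusted p under 0.05, where 24.6% of all genes had. Marker lists moved over the same time: with 10 µM BPDP, 13 of 14 cartilage genes rose (median log2 fold change 1.48), 16 of 16 cell cycle genes fell (-1.59), 11 of 12 endothelial genes fell (-0.79) and 10 of 12 muscle genes tested rose. With 1 µM, 13 of 14 cartilage genes rose (1.28), and 16 of 16 cell cycle genes (-1.07) and 6 of 12 endothelial genes (-0.33) fell, while 10 of 13 muscle genes tested and 8 of 12 macrophage genes rose. In DMSO, 12 of 14 cartilage genes rose (1.01), while 15 of 16 cell cycle genes (-0.75) and 2 of 12 endothelial genes (-0.22) fell. There 10 of 13 muscle genes tested and 8 of 12 macrophage genes rose too. With 10 µM, 3 of 12 macrophage genes rose and 5 fell (median -0.66). Of the erythroid genes tested, 3 of 11 fell with 10 µM (-0.71), 8 of 10 with 1 µM (-1.26) and 2 of 10 in DMSO (-1.04). Of 10 epidermal genes, 4 rose and 2 fell with 10 µM, 6 rose with 1 µM and 4 rose in DMSO. The part of cell composition in the members' changes was not tested.

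Of the 2 glucose transporters, Slc2a1 rose and Slc2a3 fell with 10 µM BPDP. Slc2a1 had 139, 178, 136 and 141 CPM at 24 h, against 104, 107, 93.0 and 119 CPM at 3 h, with no overlap. Its log2 fold change was 0.50 (SE 0.094, edgeR adjusted p = 0.000882). Of the 6 members from hexokinase to phosphofructokinase, 3 rose, Hk2 (0.39), Gpi1 (0.36) and Pfkm (0.26), and the other 3 did not pass.

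Ndrg1 rose most. It had 37.3, 48.9, 35.7 and 42.5 CPM at 24 h with 10 µM BPDP, against 19.1, 19.3, 16.5 and 21.4 CPM at 3 h (log2 fold change 1.12, SE 0.117, edgeR adjusted p = 3.07e-06). Aldoc, the brain-type aldolase, had 7.91, 12.1, 6.12 and 8.14 CPM at 24 h, against 3.08, 6.02, 5.57 and 2.08 CPM at 3 h (1.04, SE 0.308, edgeR adjusted p = 0.0198). For both genes every 24 h library was above every 3 h library.

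Hif1a (log2 fold change 0.37), P4ha1 (0.44) and P4ha2 (0.26) rose as well. Hif1a had 166, 154, 183 and 163 CPM at 24 h with 10 µM BPDP, against 134, 134, 120 and 132 CPM at 3 h (SE 0.071, edgeR adjusted p = 0.000903).

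Of the 8 members from aldolase to pyruvate kinase, 5 fell with 10 µM BPDP over the same time, Aldoc rose, and Aldoa and Eno1 did not pass. Gapdh had 644, 747, 669 and 729 CPM at 24 h, against 845, 1339, 1157 and 1203 CPM at 3 h, a log2 fold change of -0.69 (SE 0.121, edgeR adjusted p = 0.000437). Pkm had 656, 696, 670 and 723 CPM at 24 h, against 761, 1191, 1095 and 1078 CPM at 3 h (-0.58, SE 0.117, edgeR adjusted p = 0.00152). Pgk1 (-0.53), Tpi1 (-0.43) and Pgam1 (-0.42) fell too, and so did the transporters Slc16a3 (-0.53) and Slc2a3 (-0.41) and the mTORC1 inhibitor Ddit4 (-0.49).

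With 1 µM BPDP, Gapdh had 858, 1011, 712 and 876 CPM at 24 h, against 1473, 1302, 1444 and 1271 CPM at 3 h (log2 fold change -0.65, SE 0.109, edgeR adjusted p = 0.000506). Pkm (-0.65), Pgk1 (-0.59), Tpi1 (-0.58), Eno1 (-0.42) and Pgam1 (-0.29) fell, while Aldoc (0.87) and Pfkm (0.22) rose. Ndrg1 had 26.2, 28.5, 19.5 and 53.2 CPM at 24 h, against 17.6, 18.0, 19.7 and 20.4 CPM at 3 h (0.77, SE 0.285, edgeR adjusted p = 0.0948), with replicate 4 at 24 h far above the others.

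In DMSO the same genes were split at 24 h. Gapdh had 1724, 801, 917 and 1161 CPM at 24 h, against 1332, 1310, 1251 and 1559 CPM at 3 h (log2 fold change -0.24, interval -0.68 to 0.21). Slc2a1 had 450.1, 68.6, 81.7 and 219 CPM at 24 h, against 110, 112, 99.8 and 137 CPM at 3 h (0.85, interval -0.70 to 2.39). The low pair lay below all 3 h libraries for both genes, and replicate 1 at 24 h above them. Replicate 4 at 24 h was above all 3 h libraries for Slc2a1 (219 CPM) but below all of them for Gapdh (1161 CPM).

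Over the members the median log2 fold change in DMSO was 0.49, with 30 positive, against 0.01 over all genes. Without DMSO 24 h replicate 1 alone it was 0.11, with 20 positive and 14 negative, and within replicates 3 and 4 it was 0.23. Without the high pair of DMSO 24 h libraries it was -0.44, with 29 negative, and 8 members passed as lower, where 4.92% of all genes passed. Those were Slc16a3, Pgk1, Ddit4, Pfkp, Tpi1, Gapdh, Slc2a1 and Ankrd37. Since the pair was found from the members' own levels, a shift downward comes with leaving it out. The share of all genes, which were not chosen so, is no like measure for these calls. Aldoc passed in DMSO without DMSO 24 h replicate 3, and Hk1 without DMSO 24 h replicate 2.

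Calls over time depended on single libraries for the members near the threshold. With 10 µM BPDP, 13 to 17 members passed when 1 library was left out, and Slc2a1, Slc2a3, Gapdh, Pgam1, Pkm, Hif1a, Ndrg1, Ddit4 and P4ha1 passed each time. With 1 µM BPDP, 4 passed without 3 h replicate 1, 2 or 3, 5 without 3 h replicate 4 or 24 h replicate 1, and 11 without 24 h replicate 4. Tpi1, Gapdh and Pkm passed in each of these fits. In both BPDP comparisons same-numbered libraries deviated together in all 4 pairs. The own number was the best match in only 1 of 4 with 10 µM and 2 of 4 with 1 µM. With replicate number as a block, 24 members passed with 10 µM and 10 with 1 µM. Vegfa, Adm, Aldoa, Bnip3, Egln3, Ldha and Pdk1 were added with 10 µM, and with 1 µM Egln3, Ndrg1 and Pdk1 were added and Pgk1 was lost.

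All 24 libraries were also fitted together, so that the BPDP groups share 1 estimate of spread with the split DMSO group. There 4 members passed with 10 µM BPDP (Gapdh, Pkm, Pfkm and Hif1a) and 2 with 1 µM (Gapdh and Pkm). For this fit and the block, the share of all genes is not given here. Their counts show only how the calls depend on the fit. Scaling to total counts moved the median of all genes to -0.12 in the 10 µM comparison over time, against -0.01 with TMM. Under it, Hk2, Gpi1, Pfkm and P4ha2 no longer passed, and Eno1, Epas1 and Pfkl were added as lower.

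**Figure D4:**
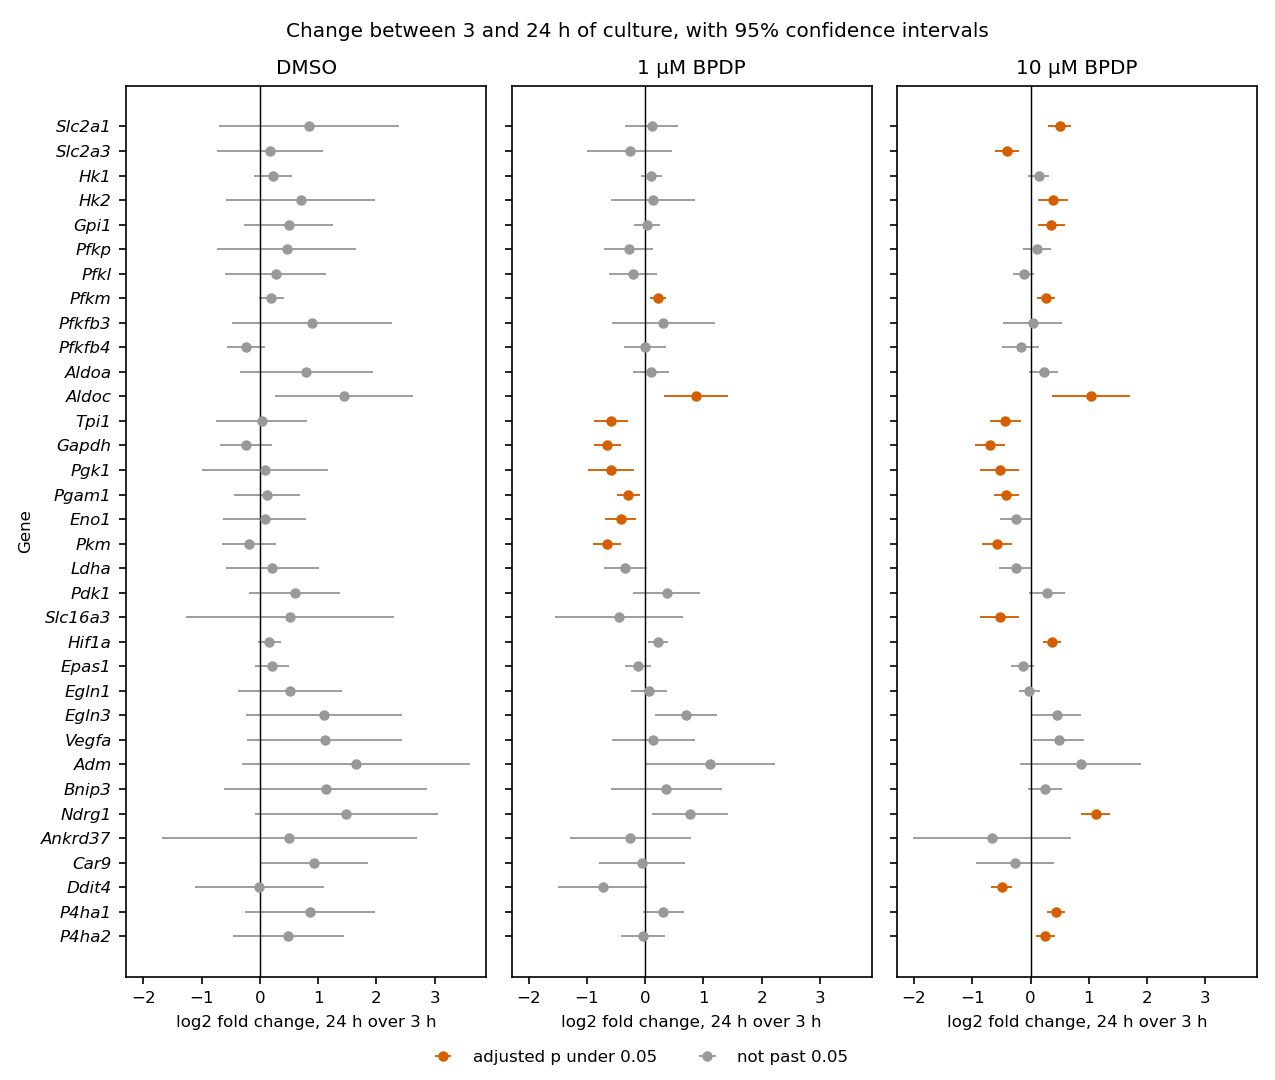
Log2 fold change of each member at 24 h over 3 h, with 95% confidence intervals, in DMSO, 1 µM and 10 µM BPDP, with orange points for an edgeR adjusted p under 0.05. Intervals are widest in DMSO, where 0 members passed, and 8 passed with 1 µM and 17 with 10 µM.

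The difference between these changes was tested as an interaction of dose and time in the fit of 24 libraries. With 10 µM BPDP, 0 of 34 members passed in edgeR, where 2.59% of 16691 genes did, and Pgam1, Epas1 and Car9 had an unadjusted p under 0.05, where 14.3% of genes had. With 1 µM BPDP, 0 members passed, where 0.0359% of genes did, and Epas1 had an unadjusted p under 0.05, where 3.44% of genes had. Slc2a1 had an interaction of -0.35 (interval -1.53 to 0.83) with 10 µM. A different change over time with BPDP than in DMSO was therefore not shown for any member. Without DMSO 24 h replicates 1 and 4 Slc2a1 alone passed (1.10), where 2.57% of all genes did. A shift upward comes with that choice of libraries, so the share of all genes is no like measure for this call.

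No difference between the doses passed in any member. At 24 h, 0 of 34 members passed between 10 µM and 1 µM BPDP, where 3.35% of 16691 genes did in edgeR, and Hif1a had an unadjusted p under 0.05 (log2 fold change 0.17, interval 0.01 to 0.34), where 16.5% of genes had. At 3 h 0 members passed, where 0% of genes did, and 0 members had an unadjusted p under 0.05, where 8.3% of genes had. The interval for Vegfa at 24 h, -0.17 to 1.47, shows the size of difference that these libraries leave possible.

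Of the other pathway genes on the list, a few passed at 24 h with 10 µM BPDP against DMSO. Of 42 other hypoxia-related genes tested, 2 rose and 3 fell, and of 28 other genes of glucose metabolism 1 rose. Stc2, a secreted glycoprotein that the unfolded protein response also induces, had 44.3, 32.8, 56.9 and 41.3 CPM with 10 µM BPDP, against 25.9, 15.5, 14.96 and 20.3 CPM with DMSO (log2 fold change 1.20, SE 0.200, edgeR adjusted p = 0.00475). Flt1, a VEGF receptor of endothelial cells, had 8.46, 9.13, 4.66 and 9.05 CPM with 10 µM BPDP, against 30.7, 18.9, 14.7 and 22.9 CPM with DMSO (-1.47, SE 0.253, edgeR adjusted p = 0.00551).

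Hmox1, heme oxygenase 1, rose (0.58), as did Slc2a4, the insulin-responsive glucose transporter (0.44), while Igfbp3, which binds insulin-like growth factors (-0.64), and Rcor2 (-0.40) fell. The endothelial list, of which Flt1 is itself a member, summed to 232 to 269 CPM with 10 µM BPDP at 24 h and 362 to 449 CPM with DMSO. Other lists moved in the same comparison: 8 of 12 macrophage genes fell (median log2 fold change -1.55), with a sum of 72.6 to 108 CPM with 10 µM and 180.3 to 271 CPM with DMSO. All 16 cell cycle genes fell (-0.84), with a sum of 634 to 724 CPM with 10 µM and 1140 to 1315 CPM with DMSO. The part of these cells in the members' values was not tested. Of 18 genes of the integrated stress response, to which Stc2 and Ddit4 are also tied, 12 rose at 24 h with 10 µM. Their summed level was 1640 to 2466 CPM with 10 µM and 1070 to 1292 CPM with DMSO, and in the DMSO libraries it did not follow the split.

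Between 24 and 3 h with 10 µM BPDP, 15 of 42 other hypoxia-related genes rose and 6 fell. Bhlhe41, a transcriptional repressor, had the largest rise among them, with 15.7, 16.6, 13.6 and 15.3 CPM at 24 h, against 4.38, 3.95, 5.23 and 5.77 CPM at 3 h (log2 fold change 1.68, SE 0.160, edgeR adjusted p = 1.16e-06). Of 28 other genes of glucose metabolism, 7 rose and 2 fell. The hexokinase Hk3 rose (1.92), and so did the muscle forms Pgam2 (0.86) and Eno3 (0.67). Muscle markers summed to 2542 to 3517 CPM at 24 h and 1402 to 1674 CPM at 3 h. The part of muscle cells in the rises of Pgam2 and Eno3 was not tested. Of 25 genes of respiration and the citrate cycle, 1 rose and 3 fell.

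The authors' deposited table for 10 µM BPDP against DMSO at 24 h had 2 members with an adjusted p under 0.05, Hif1a (log2 fold change 0.33) and Pkm (-0.53). The authors' deposited table for 10 µM against DMSO at 3 h had 3, Slc16a3 (-0.36), Eno1 (-0.36) and Ldha (-0.31). The authors' deposited tables for 1 µM against DMSO at either time and for DMSO at 24 h against 3 h had 0. These are the members that the DESeq2 fits here called.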

How the data were processed

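Poly-A RNA of 24 libraries in 6 groups of 4 was analysed, grouped by the sample labels. The authors deposited 5 pairwise tables. Per the submitters' processing notes, the genome build was mm10 and the tools named were HTSeq 0.6.1, STAR 2.5, CASAVA 1.8 and DESeq2, listed with version 2. Their deposited counts are raw reads by gene; libraries present in several tables gave 375696 repeated values, of which 0 differed. The authors' log2 fold change, p-value and adjusted p-value columns were used where named, and 50 columns were not used. Gene lengths in bases are also the authors'.

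The members and lists were chosen with earlier results of these data known. Every member could be named; per-library values were given for members called against DMSO or over time and up to 3 more per role by mean level. Slc16a3, Bnip3, Ndrg1, Vegfa, Adm, Ankrd37, Ddit4, Epas1, Pfkfb4, Ero1l, Bhlhe40 and the printed promoters were chosen after their values were seen. Up to 6 called genes of the other pathway lists were named per comparison.

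Tests used edgeR 4.0.16 (quasi-likelihood, robust; TMM; filterByExpr with minimum count 10 and minimum total 15) in R 4.3.3, on the 8 libraries compared; doses and interactions used all 24. SE is the absolute log2 fold change over the root of F. Adjusted p under 0.05 was called. The scripts were tested on simulated data. CPM and RPKM share 1 TMM scaling (factors 0.916 to 1.1), and SDs on the log scale used log2(CPM + 1). No 2 libraries of a group were near copies (lowest chi-square per degree of freedom 4.91). Alternatives were DESeq2 1.42.0, total counts, no filter, replicate blocks, a term for replicates 3 and 4, fits within replicates 1 and 2 or 3 and 4, all 24 libraries, leaving out each library, and, added after seeing the data, leaving out DMSO 24 h replicates 1 and 4. Same-numbered libraries deviated together in all 4 pairs (bound 0.1) for 10 µM against DMSO at 24 h (0.151 to 0.418), 1 µM against DMSO at 24 h (0.141 to 0.377) and at 3 h (0.123 to 0.462), both comparisons over time with BPDP (0.178 to 0.280 with 10 µM, 0.123 to 0.310 with 1 µM) and the doses at 24 h (0.221 to 0.361), and in 3 of 4 pairs for the rest.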

Additional observations from a re-analysis of the deposited data

Results flagged for a closer look

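Single libraries stood apart from the other 3 of their group for 13 of 204 combinations of gene and group, where chance gives about 10.2 (5%). In replicate 4 of 1 µM at 24 h, 4 members were far above the other 3: Egln1 at 115 CPM, Pfkfb3 at 39.7 CPM, Pfkl at 177 CPM and Vegfa at 95.6 CPM. With 10 µM BPDP at 24 h, Slc2a1 was high in replicate 2 (178 CPM) and Adm low in replicate 3 (1.40 CPM). In DMSO 24 h, Epas1 was high in replicate 3 (47.6 CPM).

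At 3 h with 10 µM BPDP, Hif1a was low in replicate 3 (120 CPM) and Pfkl in replicate 1 (117 CPM). With 1 µM BPDP at 3 h, Slc2a1 was low in replicate 3 (93.1 CPM) and Ankrd37 high in replicate 2 (2.36 CPM). In DMSO 3 h, Pfkl was high in replicate 4 (186 CPM) and Ankrd37 in replicate 2 (3.84 CPM). The split of the DMSO 24 h libraries into pairs is not among these, since 2 libraries were high together. The causes were not tested.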

How the results depend on the processing

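For 10 µM BPDP against DMSO at 24 h, 1 member passed by edgeR, 2 with DESeq2, 0 within replicates 1 and 2, 3 within replicates 3 and 4, 7 in the fit of all 24 libraries, 6 without DMSO 24 h replicates 1 and 4, and 0 to 3 with 1 library left out. For 10 µM at 3 h the count of 0 was 3 with DESeq2 and 1 each with no filter, with the replicate block and with the term for replicates 3 and 4. For 24 against 3 h in DMSO the count of 0 was 1 with the replicate block, 2 with all 24 libraries, 8 without DMSO 24 h replicates 1 and 4, and 0 to 1 with 1 library left out. For 24 against 3 h the counts were, with 10 µM BPDP, 17 in the fit of 8 libraries, 4 within replicates 1 and 2, 4 with all 24 and 13 to 17 with 1 left out, and with 1 µM, 8, 3 within replicates 3 and 4, 2 with all 24 and 4 to 11 with 1 left out. The interaction of 10 µM with time had 1 member without DMSO 24 h replicates 1 and 4, against 0. Without those 2 libraries, 26 of 34 members were positive at 24 h with 10 µM, against 1 with all libraries; 5 were positive over time in DMSO, against 30; and 30 were positive in the interaction of 10 µM with time, against 3. Some members passed there with the sign reversed against the main fit. At 24 h with 10 µM they were Slc2a1 (1.00), Hk2 (0.68), Pfkp (1.02), Ndrg1 (1.09), P4ha1 (0.44) and P4ha2 (0.64). Over time in DMSO they were Ankrd37 (-2.36), Pfkp (-0.74), Pgk1 (-0.93), Slc16a3 (-1.34), Slc2a1 (-0.61) and Tpi1 (-0.68). Gapdh and Ddit4 passed over time in DMSO too, as lower, without a reversal. In the interaction it was Slc2a1 (1.10). The choice of libraries brings a shift in this direction with it. Fits within replicates 1 and 2 or 3 and 4 leave 2 libraries a group, and the other causes were not tested. The block added Slc16a3 for 10 µM at 3 h (adjusted p = 0.0269) and Aldoc over time in DMSO, where the median fell to 0.19; in these 2 comparisons the numbers pair the libraries in 3 of 4 cases only, with the own number the best match in 2 and 3 of 4. Beyond these and the calls over time with BPDP given in the report, the block changed no member's call. Against DMSO at 24 h the own number was the best match in 3 of 4 with 10 µM and 4 of 4 with 1 µM. Between the doses at 24 h it was the best match in 4 of 4. Where no share of all genes is given, the counts show only how the calls depend on the fit.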
